A study of Mus musculus with 80 samples.

Results

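The genes described here code for 8 surface or surface-associated proteins by which adipose progenitors are recognised and sorted: Pdgfra, Pdgfrb, Dpp4, Pi16, Cd34, Ly6a, Thy1 and Cd248. They were taken by gene symbol from the annotated array table, with the feature of the highest mean standing for each symbol. All 8 were found, each with 1 feature, among 38827 gene symbols in the table. No member had to pass a filter on low values.

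White fat holds a stromal compartment of mesenchymal cells beside its fat cells, and new fat cells arise from part of it. PDGFRα marks most of these stromal cells, whereas PDGFRβ also marks the pericytes and smooth muscle cells around vessels. DPP4 and PI16 mark an interstitial progenitor population that lies in the connective tissue around the depot and is held to be upstream of committed preadipocytes. CD34, SCA-1 (the product of Ly6a) and CD248 are used to enrich stromal progenitors, and THY1 is shared between stromal cells and T cells.

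Gene expression had been measured on Affymetrix arrays in subcutaneous white fat of male mice of inbred BXD strains, each a fixed mix of DBA/2J and C57BL/6J genomes, and of both parents. The high fat group (38 arrays) received Harlan 06414 from week 8, and the chow group (42 arrays) received Harlan 2018 throughout. All animals were 29 weeks old, had been fasted from 6 pm to 9 am and were perfused under isoflurane. Each array held 1 pool of RNA from about 5 animals of 1 strain and diet, so the spread within a strain and diet was not measured, and strains served as the replicates. The 38 strains measured on both diets were 36 BXD strains, DBA/2J and C57BL/6J, and 4 more BXD strains (BXD56, BXD60, BXD92a, BXD96) had a chow array but none on high fat. The labels name no transgene. The whole depot was used, so each level belongs to the tissue and not to sorted progenitors: fewer cells of a type and less RNA per cell cannot be told apart.

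Levels are given in scale units, in which every array has a mean of 8 and an SD of 2 over all its features. A unit is thus 0.5 of an array's SD and not a log2 unit, so differences are given in place of fold changes. Levels of different genes come from different probes and are not set against each other. Where the changes of 2 genes are compared, an equal response of their probes is assumed and was not tested. Depth has no counterpart on an array; precision is limited by how many arrays there are. The list of fat cell genes averaged 13.24 to 14.05 units on high fat and 13.40 to 14.17 units on chow, above the array mean in every array.

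The array labels were checked before any comparison. Over 100 genes whose levels fell into 2 clusters among the strains, the high fat and chow arrays of 23 of the 38 strains matched each other best (r of 0.73 to 0.96). In the other 15 strains the correlation within the strain was between -0.365 and 0.433, and an array of another strain matched better: BXD51, BXD55, BXD63, BXD73, BXD75, BXD79, BXD80, BXD81, BXD83, BXD84, BXD85, BXD87, BXD89, BXD90 and BXD95. The chow array of BXD51 matched the high fat array of BXD55 best (r = 0.821), and that of BXD55 matched BXD51 (0.932). Most other unmatched chow arrays matched best the high fat array of an earlier strain, such as BXD80 with BXD75 (0.91). Those of BXD63, BXD73 and BXD75 matched a later strain best. Whether labels were exchanged was not tested, and each array was kept under its own label. A change within any of these 15 strains may thus compare different strains. The diet, strain and parental tests of the members and the counts of the gene lists are given for the 38 strains and for the 23 that matched, and values of single list genes for the 38 alone. The diet labels were separated by Mir200c, chosen after its values were seen, which lay between 7.39 and 8.38 units on high fat and between 5.65 and 6.73 units on chow.

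Promoter sequences are shown for Dpp4 and Pi16, whose levels were correlated on both diets and whose diet changes differed, as described further on. Each window is that of RefSeq's promoter table (GRCm38.p6), 5′ to 3′ on the gene's strand, with 250 bases before and 50 bases after the start that the table uses. That start lies 84 bases inside the outer end of the annotated gene for Dpp4 and 86 bases inside it for Pi16. Capitals mark matches to the motifs searched on both strands: the TATA box (TATAAA), the GC box (GGGCGG), the CCAAT box (CCAAT), an AP-1 site (TGANTCA, where N is any base) and an E-box (CACGTG).
Dpp4, chr2:62412182-62412481, minus strand: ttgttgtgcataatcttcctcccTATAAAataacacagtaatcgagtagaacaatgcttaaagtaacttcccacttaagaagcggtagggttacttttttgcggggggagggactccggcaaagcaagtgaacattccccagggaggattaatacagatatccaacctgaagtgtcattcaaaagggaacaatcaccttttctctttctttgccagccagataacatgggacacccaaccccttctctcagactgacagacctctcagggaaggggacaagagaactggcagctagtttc
Pi16, chr17:29318632-29318931, plus strand: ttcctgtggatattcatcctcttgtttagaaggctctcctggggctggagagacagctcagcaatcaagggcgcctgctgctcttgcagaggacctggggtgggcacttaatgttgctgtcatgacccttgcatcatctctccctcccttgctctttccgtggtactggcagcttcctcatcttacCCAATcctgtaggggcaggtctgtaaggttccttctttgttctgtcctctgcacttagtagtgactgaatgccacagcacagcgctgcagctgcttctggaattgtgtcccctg
In these windows the search found 1 TATAAA in Dpp4, whose first base lies at -227 from that start, and 1 CCAAT in Pi16 at -64. Of the 32851 promoters of the same table, 13.6% held the TATA box letters, 35.7% the GC box, 37.4% the CCAAT box, 7.8% the AP-1 site and 7.2% the E-box. None of the motifs searched was found in both windows, and the GC content was 45.3% in Dpp4 and 53.3% in Pi16.

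The comparison of diets asked how the markers differed between high fat and chow within a strain. Pdgfrb, Cd34, Thy1 and Cd248 were higher on high fat, Dpp4 was lower, and Pdgfra, Pi16 and Ly6a did not pass the test (limma with strain as a block, adjusted p under 0.05 over all symbols). The 5 members called stand beside a background of 61.2% of all genes called in either direction, a similar share. Among all genes, 36.7% were called higher and 24.5% lower on high fat, against 4 and 1 of the members. The median change was 0.152 units for the members and 0.027 units for all genes. In the 23 strains that matched, 6 members were called, beside 54.7% of all genes: Pdgfra and Ly6a entered, and Dpp4 dropped out.

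**Figure D1:**
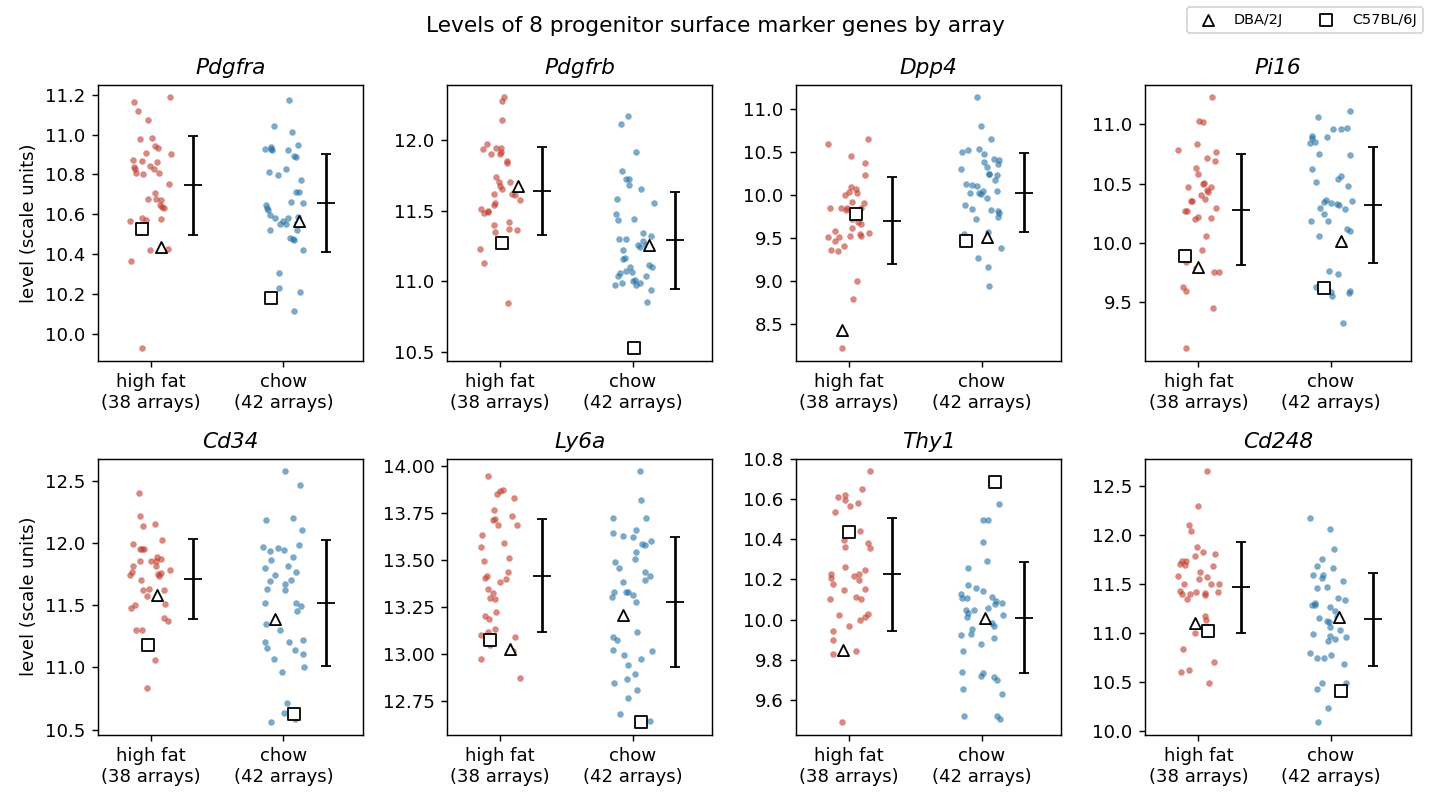
Level of each marker in scale units (vertical axes, not starting at 0) on the 38 high fat arrays (red) and the 42 chow arrays (blue), 1 point per array, with the parents as open symbols and bars for the mean ± SD. The ranges of both diets overlap for every marker, and C57BL/6J on chow is the lowest array for Pdgfrb and Ly6a and the highest of the chow arrays for Thy1.

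Among the receptors, Pdgfrb, which binds PDGF-B and PDGF-D, ranged from 10.85 units in BXD63 to 12.30 in BXD65 on high fat, with a median of 11.62. On chow it ranged from 10.53 in C57BL/6J to 12.17 in BXD69, with a median of 11.25. The ranges overlapped, but 33 of 38 strains were higher on high fat. Within strains Pdgfrb rose by 0.365 ± 0.340 units (SD, n = 38 strains, 95% interval 0.257 to 0.473, limma adjusted p = 2.13e-07). This call was kept when any single strain was left out, and the change was 0.427 ± 0.299 units in the 23 matched strains (limma adjusted p = 1.63e-06).

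Pdgfra, the receptor for PDGF-A, PDGF-B and PDGF-C, had a median of 10.80 units on high fat, between 9.93 in BXD75 and 11.19 in BXD69. Its chow levels lay between 10.12 in BXD55 and 11.18 in BXD92a, with a median of 10.63. The high fat group held the lowest array of all, that of BXD75, and the groups overlapped almost wholly. The mean difference was 0.085 ± 0.314 units (SD, n = 38 strains, 95% interval -0.015 to 0.186, limma adjusted p = 0.133). A single strain decided the call: without BXD75, in which Pdgfra fell by 0.998 units and whose arrays did not match, the adjusted p was 0.0177. In the matched strains Pdgfra was higher on high fat in 19 of 23, by 0.199 ± 0.198 units (limma adjusted p = 0.000223).

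In scale units, the change in Pdgfrb exceeded that in Pdgfra, a pair picked with earlier results known. The difference between both changes was 0.280 ± 0.358 units, with Pdgfrb ahead in 30 of 38 strains (sign-flip permutation test, two-sided, adjusted over 3 pairs, p = 4.5e-05). It was 0.228 ± 0.327 units in the 23 matched strains (permutation p = 0.00378, adjusted likewise). Of the 4 ligands of these receptors, 3 rose on high fat and none fell, beside the 36.7% of all genes called higher, and the counts were equal in the matched strains. Pdgfd averaged 11.31 units on high fat and 10.81 on chow (change 0.498 ± 0.528 units, higher in 35 strains). Pdgfb averaged 10.22 units on high fat and 9.95 on chow (change 0.274 ± 0.246 units). Pdgfa averaged 9.79 units on high fat and 9.59 on chow (change 0.2 ± 0.132 units).

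Part of the vessel markers were higher on high fat as well, where 36.7% of all genes were called higher. Of 12 mural genes, 7 rose and none fell on high fat (6 and 0 in the matched strains), among them the smooth muscle actin gene Acta2 (13.75 units on high fat, 13.01 on chow), the pericyte proteoglycan gene Cspg4 (10.01 on high fat, 9.71 on chow) and Ndufa4l2 (9.88 on high fat, 9.48 on chow). Of 12 endothelial genes, 9 rose and none fell (11 and 0 in the matched strains), led by Tie1, a receptor of vessel lining cells, with 10.96 units on high fat and 10.52 on chow. The array means of the mural list ran from 10.46 to 11.18 units on high fat and from 10.15 to 11.01 on chow. Their part in the Pdgfrb result was not tested.

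Dpp4, a membrane peptidase also called CD26 and present on T cells as well, was the member that fell. On high fat its levels ran from 8.21 units in BXD89 and 8.42 in DBA/2J to 10.65 in BXD49, with a median of 9.75. On chow they ran from 8.93 in BXD43 to 11.14 in BXD75, with a median of 10.05. Dpp4 fell by 0.331 units on average (SD 0.587, n = 38 strains, 95% interval -0.516 to -0.146, limma adjusted p = 0.00195) and was lower in 25 strains. The median change was smaller, at -0.157 units. The extremes were BXD89, whose arrays did not match and in which Dpp4 fell by 1.809 units, and BXD43, whose arrays matched, with a gain of 0.915 units. Without the 15 strains that did not match, the mean change was -0.213 ± 0.524 units, 10 of 23 strains were higher, and the call was lost (limma adjusted p = 0.0789).

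Pi16, which codes for a secreted and membrane-anchored peptidase inhibitor-like protein, showed no call in either set of strains. It ranged from 9.11 units in BXD89 to 11.23 in BXD87 on high fat and from 9.32 in BXD71 to 11.12 in BXD100 on chow. Medians were 10.35 units on high fat and 10.33 on chow, and 19 strains were higher and 19 lower. The mean difference was -0.082 ± 0.581 units (SD, n = 38 strains, 95% interval -0.265 to 0.101, limma adjusted p = 0.442).

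Although Dpp4 and Pi16 mark the same interstitial cells, their diet changes differed. Dpp4 minus Pi16 was -0.249 ± 0.455 units, with Dpp4 above Pi16 in 12 of 38 strains (sign-flip permutation test, two-sided, adjusted over 3 pairs, p = 0.00148). In the matched strains this difference was -0.288 ± 0.376 units (permutation p = 0.00232, adjusted likewise). Dpp4 minus Pdgfrb was -0.697 ± 0.633 units, and Dpp4 had the higher change in 3 of 38 strains (permutation p = 3e-05, which is the smallest the resampling can give after adjustment). These 3 pairs were picked with earlier results known.

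Other genes of the interstitial progenitor list moved in both directions. Of 19 measured genes, 6 rose and 2 fell (8 and 2 in the matched strains). Cd55, a complement inhibitor used as a marker of the same cells as Dpp4, was lower on high fat (12.65 units on high fat, 12.98 on chow). Uchl1, a ubiquitin hydrolase gene, was higher (8.95 units on high fat, 8.66 on chow), as was Sema3c (11.04 units on high fat, 10.77 on chow), which codes for a secreted guidance protein. The median change of that list was 0.025 units, against 0.027 units for all genes, and in the matched strains it was 0.1 units, against 0.024 units.

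Cd34, a sialomucin of stromal, endothelial and blood progenitor cells, ranged from 10.83 units in BXD63 to 12.40 in BXD65 on high fat, with a median of 11.76. Its chow range was wider, from 10.56 in BXD56 to 12.58 in BXD92a, with a median of 11.57. Cd34 rose by 0.185 ± 0.458 units on high fat (SD, n = 38 strains, 26 higher, 95% interval 0.040 to 0.330, limma adjusted p = 0.0244). This call was lost after quantile normalization (0.134 units, adjusted p = 0.0894) and without the strain block (adjusted p = 0.0737). In the matched strains the change was 0.252 ± 0.395 units (limma adjusted p = 0.00768).

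Cd248, the gene of endosialin, a stromal and pericyte glycoprotein, was also higher on high fat. It ran from 10.49 units in BXD75 to 12.65 in BXD65 on high fat, with a median of 11.50, and from 10.09 in BXD43 to 12.17 in BXD92a on chow, with a median of 11.16. It rose by 0.306 ± 0.553 units (SD, n = 38 strains, 27 higher, 95% interval 0.131 to 0.480, limma adjusted p = 0.0024). The change was 0.419 ± 0.427 units in the 23 matched strains (limma adjusted p = 0.000153). The extremes were BXD75, whose arrays did not match and in which Cd248 fell by 1.174 units, and BXD43, whose arrays matched, with a gain of 1.461 units.

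Ly6a, whose product SCA-1 is a lipid-anchored surface protein of stem and progenitor cells in mice, stood near the threshold. It ranged from 12.88 units in BXD63 to 13.95 in BXD65 on high fat and from 12.64 in C57BL/6J to 13.97 in BXD65 on chow, with medians of 13.40 on high fat and 13.33 on chow. The mean difference was 0.120 ± 0.356 units (SD, n = 38 strains, 24 higher, 95% interval 0.007 to 0.233, limma adjusted p = 0.0611). It passed when any of BXD75, BXD79, BXD81, BXD84, BXD97, BXD99 or BXD100 was left out (adjusted p between 0.0201 and 0.0496), after quantile normalization (0.188 units, adjusted p = 0.00877) and in the matched strains (0.213 ± 0.275 units, adjusted p = 0.00201). With the 4 tissue lists described with Thy1 as covariates, the estimate for Ly6a was 0 units.

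Thy1, a lipid-anchored surface glycoprotein, ranged from 9.49 units in BXD89 to 10.74 in BXD99 on high fat, with a median of 10.21. On chow it ranged from 9.50 in BXD81 to 10.68 in C57BL/6J, with a median of 10.03. It rose by 0.222 ± 0.343 units (SD, n = 38 strains, 27 higher, 95% interval 0.113 to 0.332, limma adjusted p = 0.000516) and by 0.204 ± 0.313 units in the matched strains (adjusted p = 0.00733). Genes of T cells, which also carry THY1, went the other way: of 15, none rose and 12 fell on high fat (0 and 13 in the matched strains), beside the 24.5% of all genes called lower. Cd3e, a T cell receptor subunit gene, averaged 10.47 units on high fat and 11.08 on chow.

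Pieces of lymph node, muscle or skin can come along with a subcutaneous depot, and the lists of their genes varied widely. Their counts stand beside the 24.5% of all genes called lower on high fat. The T cell list averaged 8.39 to 10.40 units on high fat and 8.58 to 10.89 on chow. The B cell list had 8 of 12 genes lower on high fat, or 10 in the matched strains (Cxcl13, Cr2 and Ms4a1 foremost), and its array means ran from 8.07 to 11.42 units on high fat and from 8.43 to 11.42 on chow. The muscle list had 10 of 12 genes lower, or all 12 in the matched strains, led by Myh4, Ttn and Neb, with array means of 8.81 to 13.67 units on high fat and 8.63 to 14.20 on chow. The keratinocyte list had 8 of 12 genes lower in either set of strains, led by Krt10, Dsp and Krt5, with array means of 7.86 to 8.75 units on high fat and 7.94 to 9.56 on chow.

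With the means of those 4 lists as covariates, 3 members were still called by diet. The Thy1 change was then 0.361 units (limma adjusted p = 3.89e-08), that of Pdgfrb 0.219 units (adjusted p = 0.00313) and that of Cd248 0.271 units (adjusted p = 0.0494). Dpp4 (-0.276 units, adjusted p = 0.0737) and Cd34 (0.105 units, adjusted p = 0.332) were no longer called.

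**Figure D2:**
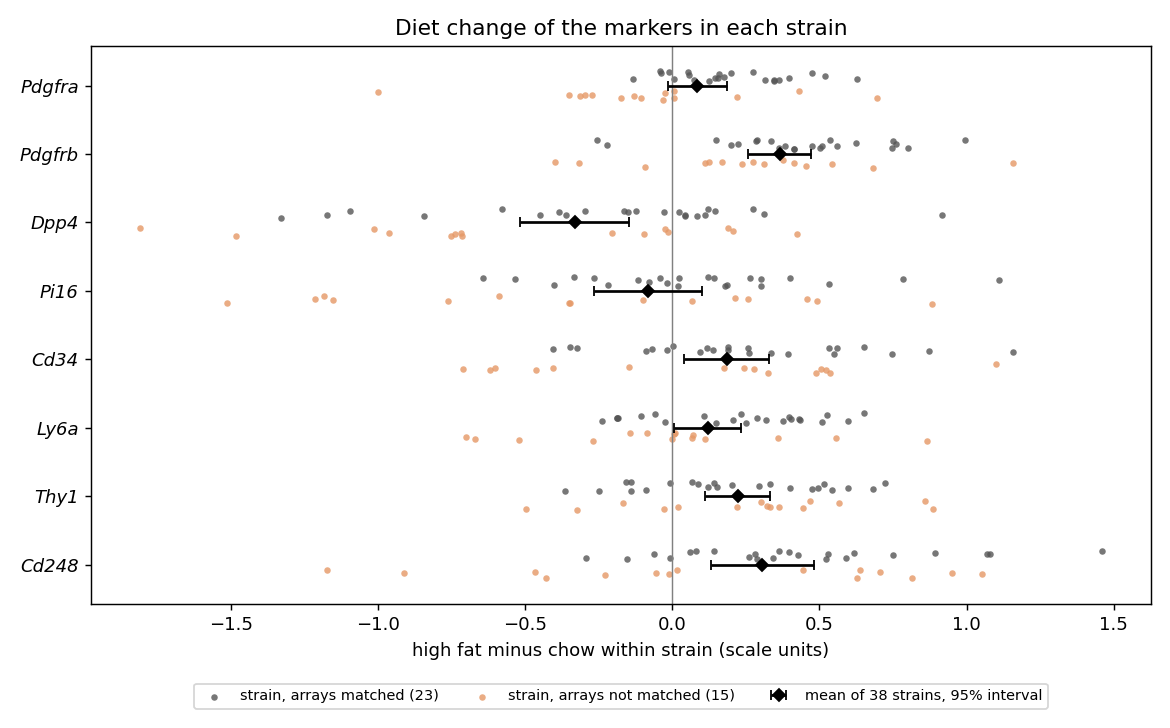
High fat minus chow within each strain in scale units (horizontal axis) for the 8 markers, with grey points for the 23 strains whose arrays matched, orange points for the 15 that did not, and diamonds for the mean with its 95% interval. Pdgfrb lies right of 0 in 33 of 38 strains and Dpp4 left of it in 25, and BXD75, an unmatched strain, gives the lowest point for Pdgfra, Pi16, Cd34, Ly6a and Cd248.

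The other stromal lists are set against the 36.7% of all genes called higher and the 24.5% called lower on high fat. Some lists share a gene: Tek stands in the interstitial and endothelial lists, and Fabp4 in the preadipocyte and fat cell lists. Of 16 genes of committed preadipocytes, 7 rose and 2 fell (7 and 1 in the matched strains), with the basement membrane genes Col4a2 (12.39 units on high fat, 11.96 on chow), Col4a1 and Col15a1 leading. Of 10 genes of CD142+ stromal cells, 3 rose and 2 fell (4 and 2 in the matched strains), with Fibin and Mgp higher and Vit lower on high fat. The counts of rising genes in these lists lie near that share. Of 14 genes of fibro-inflammatory progenitors, 9 rose and 1 fell (11 and 1 in the matched strains), among them the chemokine genes Ccl7 (9.15 units on high fat, 8.69 on chow) and Cxcl1 (8.75 units on high fat, 8.36 on chow) and the collagen crosslinking gene Loxl1 (11.15 units on high fat, 10.69 on chow). Of 15 fibroblast genes, 7 rose and 2 fell (11 and 1 in the matched strains), and Mfap4, a microfibril gene, was higher on high fat in all 38 strains (9.01 units on high fat, 8.41 on chow).

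Blood-derived and fat cell genes differed in direction from list to list, beside the 36.7% of all genes called higher and the 24.5% called lower. Of 12 macrophage genes, 9 rose and none fell (10 and 0 in the matched strains), with Cd68 at 12.12 units on high fat and 10.86 on chow, followed by Emr1 and Ms4a7. Of 8 mast cell genes, 5 rose and none fell (6 and 0 in the matched strains), led by Tpsb2, Hdc and Kit. Of 12 fat cell genes, 1 rose and 5 fell (1 and 4 in the matched strains): Lep, the leptin gene, was higher (14.48 units on high fat, 13.65 on chow), and Cfd, the adipsin gene, was lower (13.86 units on high fat, 15.06 on chow), as was Acvr1c. Of 8 mesothelial genes, 1 rose and 3 fell (Lrrn4, Gpm6a and Upk1b), with equal counts in the matched strains.

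The comparison among strains asked whether a strain kept its marker levels across both diets. With 38 strains the strain term was called for 1 of 8 members, Pdgfrb (limma F = 2.60, adjusted p = 0.0278), beside 10.4% of all genes. That call was lost without BXD65 (adjusted p = 0.0823), without C57BL/6J (0.056) or with BXD strains alone (0.0652). An unadjusted p under 0.05 was reached by 7 of 8 members, and the share of all genes at that threshold was not counted. In the 23 matched strains the strain term was called for 6 of 8, beside 17.7% of all genes: Ly6a (F = 4.94, adjusted p = 0.00209), Pdgfrb (0.00492), Pi16 (0.00726), Cd248 (0.00875), Cd34 (0.00911) and Pdgfra (0.00914). Dpp4 (adjusted p = 0.066) and Thy1 (adjusted p = 0.18) were not called.

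The share of variance that lay between strains after removal of the diet means shows the same contrast. In the matched strains it was 0.639 for Ly6a, 0.587 for Pdgfrb, 0.578 for Pdgfra, 0.554 for Pi16, 0.541 for Cd248 and 0.540 for Cd34. It was lower for Dpp4 (0.369) and Thy1 (0.262). The median over the members was 0.547, and over all genes 0.19. With all 38 strains the members' median was 0.28, between 0.135 for Pdgfra and 0.419 for Pdgfrb, and that of all genes was 0.146.

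Levels on high fat followed levels on chow in most members once the unmatched strains were left out. The share of all genes that pass this test was not measured, so it is not shown to be particular to the members. In 23 strains Pearson's r was 0.651 for Cd34 (Spearman's rho 0.572, permutation adjusted p = 0.00452), 0.641 for Ly6a (rho 0.649, 0.00452) and 0.609 for Pdgfrb (rho 0.533, 0.00544). It was 0.583 for Pdgfra (rho 0.548, 0.00654), 0.569 for Cd248 (rho 0.539, 0.00683) and 0.568 for Pi16 (rho 0.616, 0.00683). Dpp4 did not pass by r (0.374, adjusted p = 0.0887) but did by rank (rho 0.467, permutation adjusted p = 0.0291), and its r was 0.482 without the 2 strains farthest from the median chow level. Thy1 passed by neither (r = 0.262, adjusted p = 0.228; rho 0.295, adjusted p = 0.171). Without those 2 strains, chosen for each gene, r for the 6 that passed lay between 0.441 and 0.623. Over all 38 strains r lay between 0.135 and 0.420 and none of 8 passed after adjustment by r or rho, with unadjusted permutation p of 0.00898 for Pdgfrb, 0.0186 for Cd34 and 0.0266 for Ly6a.

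**Figure D3:**
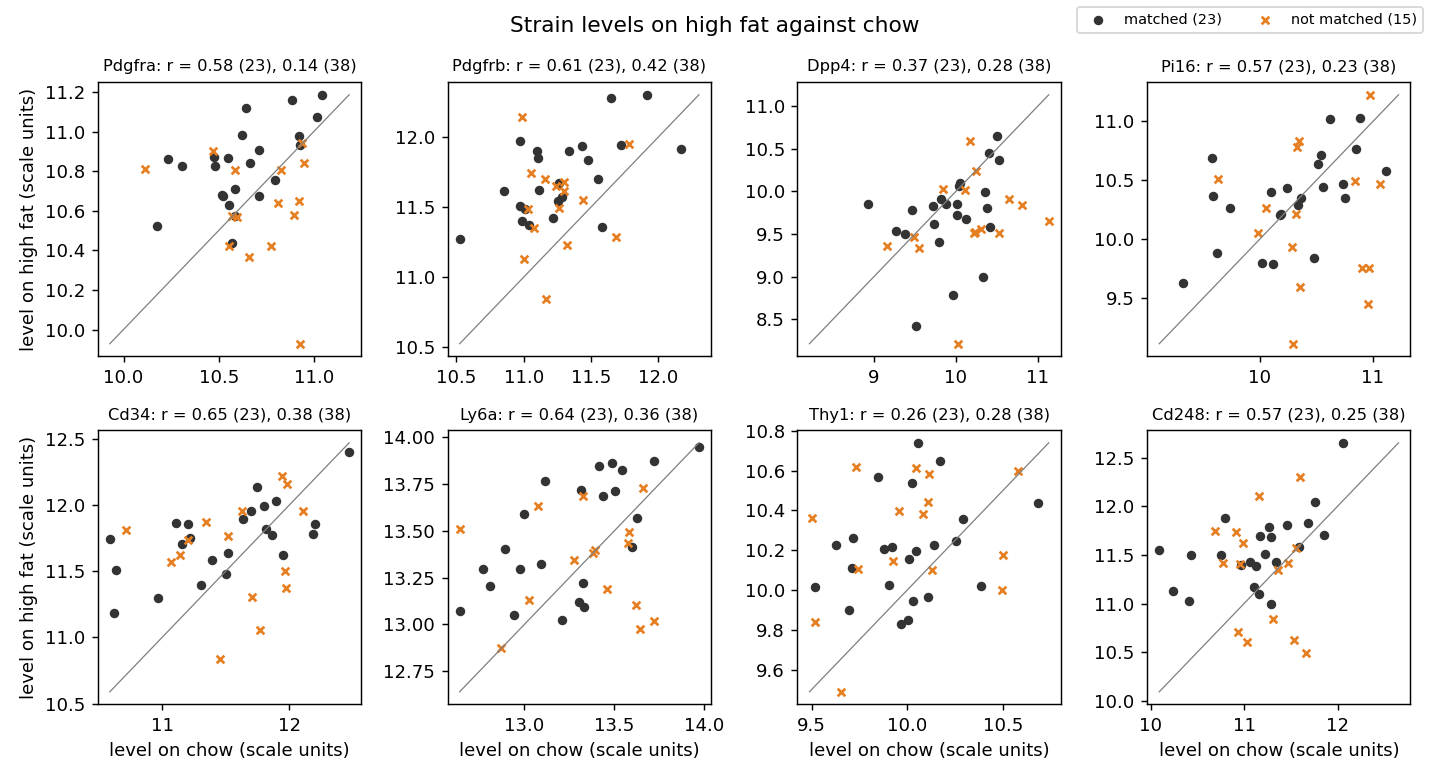
Level on high fat (vertical axis) against level on chow (horizontal axis) in scale units, 1 point per strain, with dots for the 23 matched strains, crosses for the 15 unmatched strains and a line where both are equal. In the matched strains r is 0.651 for Cd34 and 0.262 for Thy1, and with all strains r is lower for every marker except Thy1 (0.277).

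Some strains stood at an end of the range for several markers. BXD65, whose arrays matched, had the highest high fat levels of Pdgfrb (12.30 units), Cd34 (12.40), Ly6a (13.95) and Cd248 (12.65). Its chow array was among the highest 3 for the same genes, with 11.92 units for Pdgfrb, 12.47 for Cd34, 13.97 for Ly6a and 12.06 for Cd248. BXD92a, on chow alone, had the highest Pdgfra (11.18 units), Cd34 (12.58) and Cd248 (12.17) of that diet. At the other end, BXD43 on chow was lowest for Dpp4 (8.93 units) and Cd248 (10.09), and its high fat array had 9.85 units of Dpp4 and 11.55 of Cd248. Each of these extremes differed from the next strain by less than the SD of that gene's change within strains. Pdgfra in BXD75 on high fat lay farther out, at 9.93 units against 10.36 in BXD90, the next strain.

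The parents were compared as DBA/2J minus C57BL/6J. None of the 8 members was called by limma, beside 11.7% of all genes, although 2 had an unadjusted p under 0.05. The share of all genes at the unadjusted threshold was not counted. Robust regression called 3 members, beside 12600 of 38827 genes. Thy1 was 9.85 units on high fat and 10.01 on chow in DBA/2J, against 10.44 on high fat and 10.68 on chow in C57BL/6J, a difference of -0.633 (95% interval -1.109 to -0.157, limma adjusted p = 0.0716, and 0.0419 in the 23 matched strains). The T cell list followed the same order, with means of 8.47 units on high fat and 9.66 on chow in DBA/2J, against 10.09 on high fat and 10.40 on chow in C57BL/6J. With the means of the T cell, B cell, muscle and keratinocyte lists as covariates, the Thy1 difference was -0.158 units (limma adjusted p = 0.637).

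Pdgfrb was 11.67 units on high fat and 11.26 on chow in DBA/2J, against 11.27 on high fat and 10.53 on chow in C57BL/6J, a difference of 0.566 (95% interval 0.096 to 1.037, limma adjusted p = 0.106, and 0.058 in the matched strains). With the same 4 lists as covariates it was 0.281 units (adjusted p = 0.508). The mural list averaged 10.96 units on high fat and 10.63 on chow in DBA/2J, against 10.72 on high fat and 10.15 on chow in C57BL/6J. The part of vessel cells in the Pdgfrb difference was not tested. For Cd34 the difference was 0.583 units (95% interval -0.048 to 1.214) and for Dpp4 it was -0.656 (-1.462 to 0.150), so both intervals include 0, and the Cd34 difference was 0.224 units with the 4 lists as covariates. Dpp4 in DBA/2J had 8.42 units on high fat and 9.51 on chow, against 9.78 on high fat and 9.47 on chow in C57BL/6J. The intervals of Cd248, Ly6a, Pi16 and Pdgfra included 0 as well. On high fat, 32 of 36 BXD strains lay above both parents for Pdgfra and for Ly6a, 30 for Cd248 and 28 for Pi16. The counts were 26 for Cd34, 18 for Dpp4, 16 for Pdgfrb and 9 for Thy1. On chow, 35 of 40 BXD strains lay above both parents for Dpp4 and 31 for Pi16, but none for Thy1, for which 18 lay below both parents. The other members had 26 (Pdgfra), 25 (Cd34), 25 (Ly6a), 20 (Cd248) and 18 (Pdgfrb) above both. Each parent had 1 array per diet, so a single array can set such a count, and the share over all genes was not counted.

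Within a diet, most pairs of members other than Thy1 varied together across strains. Of the 28 pairs, 17 were called on high fat and 19 on chow (permutation test of Pearson's r, adjusted over the 56 values), and all 36 were positive on the deposited scale. The share called among pairs of other genes was not measured. These counts therefore do not show that the members vary together more than other genes do. Arrays of all strains entered, since these correlations lie within single arrays and do not use the pairing of diets. The closest pair was Pi16 with Cd248, with r = 0.796 on high fat (rho 0.695, and 0.739 without the 2 farthest arrays) and r = 0.872 on chow (rho 0.871, and 0.859 without those arrays). Cd34 with Cd248 gave r = 0.786 on high fat (rho 0.770) and 0.818 on chow (rho 0.786), and each of these 4 values had the smallest p the permutations can give, 1e-05 before adjustment.

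Pdgfrb was not called with Dpp4 or Pi16 on either diet. It was called with Cd248, with r = 0.511 on high fat (rho 0.408) and 0.483 on chow (rho 0.414). With the mean of the interstitial list, Pdgfrb had r = 0.313 on high fat (permutation adjusted p = 0.0943) and 0.498 on chow (adjusted p = 0.00234). Pdgfrb and Dpp4 had r = -0.141 on high fat (rho -0.194, permutation adjusted p = 0.449) and 0.235 on chow (rho 0.245, adjusted p = 0.171), and Pdgfrb and Pi16 had 0.085 on high fat (rho -0.028) and 0.257 on chow (rho 0.232). Dpp4 and Pi16 were correlated, with r = 0.626 on high fat (rho 0.601) and 0.662 on chow (rho 0.661). Pdgfrb and Cd34 were too, with r = 0.728 on high fat (rho 0.600) and 0.723 on chow (rho 0.665). By Pearson's r, Thy1 was called with 1 other member, Dpp4 on high fat (r = 0.526, rho 0.421, permutation adjusted p = 0.00118), a value of 0.320 without the 2 arrays farthest from the median. By rank, Thy1 and Pdgfrb were negatively correlated on high fat (rho -0.443, permutation adjusted p = 0.00973; r = -0.347, adjusted p = 0.0515). After quantile normalization Pearson's r of this pair passed on high fat (-0.401, adjusted p = 0.0197) and on chow (-0.377, 0.0215), as did Thy1 with Ly6a on chow (-0.345, 0.0352).

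**Figure D4:**
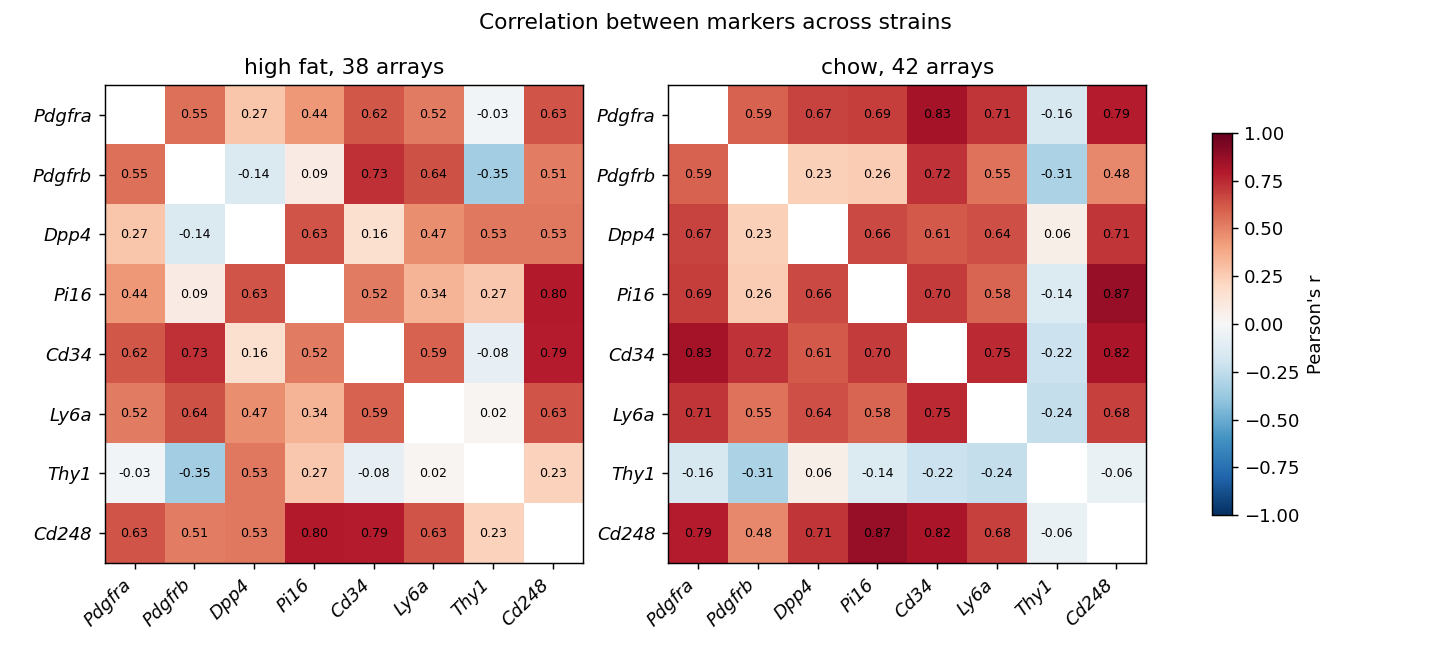
Pearson's r between markers across the 38 high fat arrays (left) and the 42 chow arrays (right), with colour and number both giving r. The Thy1 row and column lie near or below 0 in most cells, and Pi16 with Cd248 has r of 0.796 on high fat and 0.872 on chow.

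The diet changes of the members also varied together, a comparison added after the data were seen. Of 28 pairs of changes, 20 were called over 38 strains, 19 of them positive. The closest was Pi16 with Cd248 (r = 0.835, rho 0.793, and 0.780 without the 2 farthest strains), which was 0.822 in the 23 matched strains. The negative one was Ly6a with Thy1 (r = -0.373, rho -0.375, permutation adjusted p = 0.0295), and in the matched strains it did not pass (r = -0.422, adjusted p = 0.0759). Fewer of the 28 pairs passed in the 23 matched strains. Pdgfra with Pdgfrb went from r = 0.403 over 38 strains to 0.182 there (permutation adjusted p = 0.518). Pdgfrb with Cd248 went from r = 0.426 to 0.25 (permutation adjusted p = 0.35). Both changes of a pair come from the same arrays, and the share called among pairs of other genes was not measured.

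Each member was then set against the mean of 15 gene lists within a diet, from which the members themselves were left out, and 127 of 240 correlations were called (permutation test of Pearson's r, adjusted over the 240), 108 of them positive. The share called for genes other than the members was not measured. Cd248 and Pi16 followed the interstitial list most closely, with r = 0.90 on high fat and 0.93 on chow for Cd248 and 0.87 on high fat and 0.89 on chow for Pi16. Pdgfrb had its highest values with the vessel lists, with r = 0.82 on high fat and 0.88 on chow for mural genes and 0.82 on both diets for endothelial genes. Other lists were not far below. Pdgfrb had r = 0.77 on high fat and 0.78 on chow with the fibro-inflammatory list. With the fibroblast list it had 0.77 on high fat and 0.70 on chow. Thy1 followed the lymphocyte lists, with r = 0.68 on high fat and 0.78 on chow for T cell genes and 0.49 on high fat and 0.66 on chow for B cell genes.

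Cd34 had r = 0.90 with the fibroblast list on both diets. Dpp4 had r = 0.59 on high fat and 0.73 on chow with the interstitial list, and -0.42 on high fat and 0.06 on chow with the mural list. With T cell genes Dpp4 had r = 0.45 on high fat and -0.05 on chow, and whether the diets differ in this was not tested. Pdgfra had r between 0.73 and 0.83 with the fibroblast and fibro-inflammatory lists on either diet. The macrophage list gave values nearly as high for several members. They were 0.70 on high fat and 0.77 on chow for Pdgfra, and 0.67 on high fat and 0.75 on chow for Pdgfrb. For Cd34 they were 0.60 on high fat and 0.78 on chow, and for Ly6a 0.63 on high fat and 0.69 on chow. Thy1 was not called with that list on either diet. The arrays share pools and tissue makeup across all lists, so these values describe which genes vary together and not which cells express them.

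**Figure D5:**
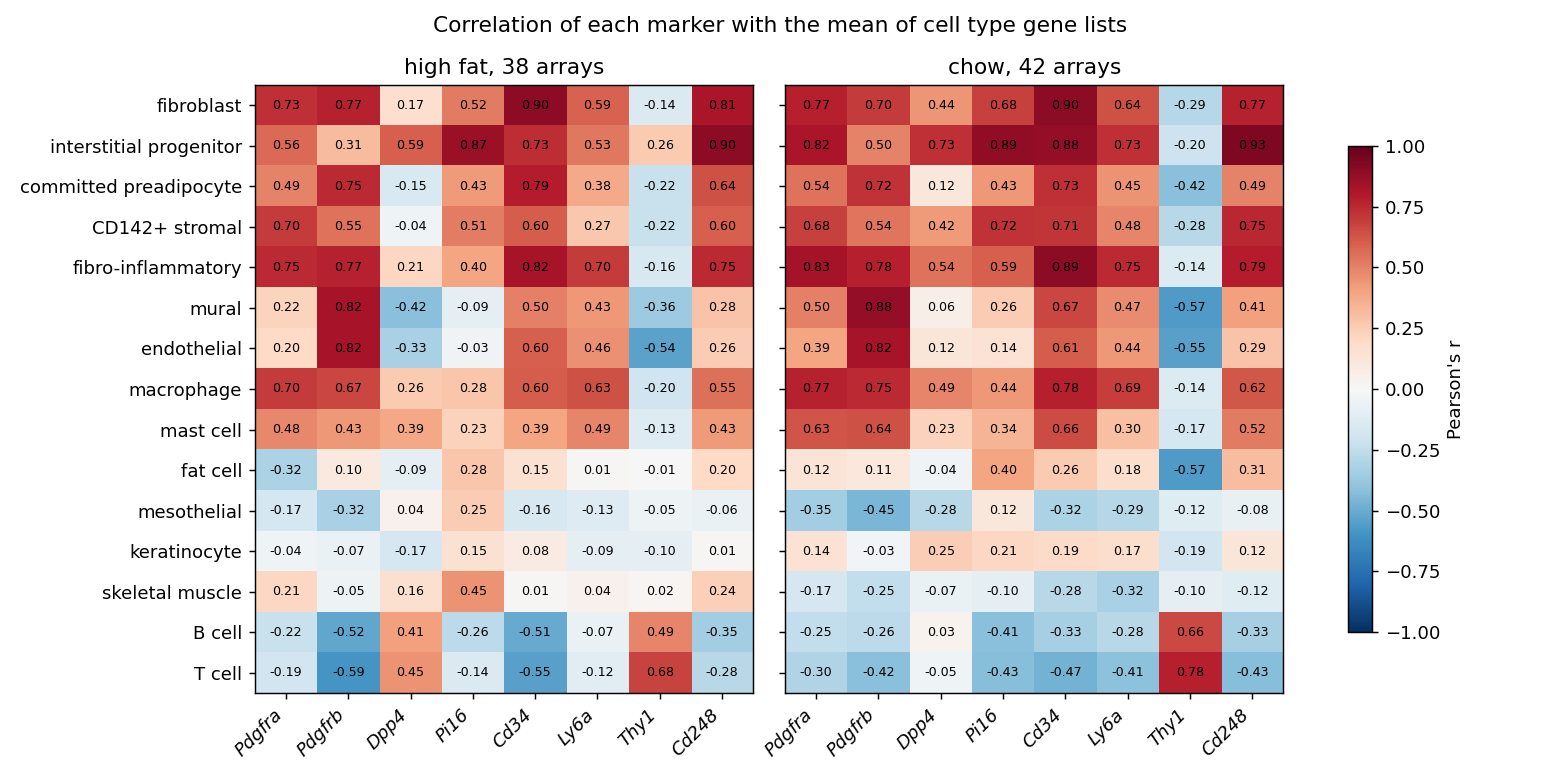
Pearson's r of each marker (columns) with the mean of each gene list (rows) across the 38 high fat arrays (left) and the 42 chow arrays (right), with colour and number both giving r. Thy1 is positive with T cell genes (0.68 on high fat, 0.78 on chow) and negative with mural and endothelial genes, where Pdgfrb reaches 0.82 or more.

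The named genes whose levels followed each member most closely on both diets were taken by the lower of both correlations. For Pi16 they were Gfpt2, an enzyme gene of hexosamine synthesis (r = 0.912 on high fat and 0.909 on chow), Igfbp6, a secreted growth factor binding protein (0.891 on high fat, 0.910 on chow), and Fndc1 (0.886 on high fat, 0.895 on chow). Igfbp6 was lower on high fat (-0.151 units, limma adjusted p = 0.0307), and Gfpt2 (adjusted p = 0.417) and Fndc1 (0.666) were not called by diet. Fndc1 was also among the closest to Cd248 (0.919 on high fat, 0.950 on chow), with Scara3 (0.932 on high fat, 0.923 on chow) and Dnm1, a dynamin gene (0.920 on high fat, 0.906 on chow). For Dpp4 the values were lower: Sema3d, a secreted semaphorin (0.781 on high fat, 0.815 on chow), Lyve1, a hyaluronan receptor of lymphatic vessels and macrophages (0.779 on high fat, 0.750 on chow), and Il13ra1, an interleukin-13 receptor chain (0.703 on high fat, 0.751 on chow).

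Pdgfrb was followed by Itga5, the α chain of a fibronectin receptor (0.897 on high fat, 0.882 on chow), Dpysl2 (0.874 on high fat, 0.903 on chow) and Naalad2 (0.868 on high fat, 0.876 on chow). Itga5 also rose on high fat, by 0.488 units (limma adjusted p = 3.41e-11). Pdgfra was followed by Dcn, the gene of the matrix proteoglycan decorin (0.816 on high fat, 0.864 on chow), Bicc1 (0.841 on high fat, 0.815 on chow) and Medag (0.812 on high fat, 0.872 on chow). Dcn was lower on high fat (-0.173 units, limma adjusted p = 0.00378), whereas Bicc1 (0.144 units, 0.00385) and Medag (0.152 units, 0.0098) were higher. Cd34 was followed by Antxr2 (0.864 on high fat, 0.930 on chow), Bmp1, a procollagen-processing protease gene (0.876 on high fat, 0.857 on chow), and Lurap1l (0.853 on high fat, 0.889 on chow).

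For Ly6a the closest genes were its own neighbours on the chromosome. They were Ly6c2 (0.952 on high fat, 0.920 on chow), Ly6c1 (0.894 on high fat, 0.921 on chow) and Ly6i (0.879 on high fat, 0.846 on chow), members of the same family of small surface proteins with similar sequences. Signal shared between their probes was not tested, so the level of Ly6a is uncertain to that extent. Ly6c1 is also a gene of the fibro-inflammatory list, with which Ly6a had r = 0.70 on high fat and 0.75 on chow.

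For Thy1 the closest genes were Lsp1, a leukocyte cytoskeletal protein gene (0.801 on high fat, 0.853 on chow), and the ribosomal protein genes Rps13 (0.785 on high fat, 0.765 on chow) and Rpl19 (0.812 on high fat, 0.760 on chow). None of these 3 belongs to a stromal list, and Lsp1 did not change with diet beyond the test (-0.002 units, limma adjusted p = 0.98).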

How the data were processed

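Pools of RNA from subcutaneous white fat were hybridised to 80 Affymetrix arrays. Per the submitters' processing notes, the authors used Affymetrix Expression Console and RMA, with no versions given. The deposited values are a score: each array has a mean of 8 and an SD of 2 over 65770 features, a rescaling whose step is not given in the sources used here, so a change is relative to all other features. Features without a symbol (26355) were set aside, and the highest-mean feature stood for each of 38827 symbols. The design had assumed plain log-scale values; the same test was kept. Diet, strain and parental terms came from 1 limma 3.58.1 fit (R 4.3.3) over 76 arrays with diet and strain as terms, Benjamini-Hochberg adjusted, threshold 0.05. Strain pairs the arrays by label. The script was tested on simulated data. Correlations and sign-flip tests used 100000 resamples, two-sided (scipy 1.17.1). No scan date or batch label was found. The members, gene lists, named pairs and tests were chosen with earlier results of these data known. Named genes were the 3 closest to each member and the 3 largest called changes per list; any other is said to have been picked later. One list gene (Adgrd1) was unmatched and its older symbol Gpr133 was used. Promoters came from RefSeq (GRCm38.p6), where 4 members matched and 2 are shown.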

Additional observations from a re-analysis of the deposited data

How the results depend on the processing

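Quantile normalization, robust regression, leaving out the lowest 40% of genes, tissue lists as covariates, leaving out unmatched strains or each strain in turn, dropping the strain block (no replicate block) and all 80 arrays with strain as a random block were tried where they applied. The count of members called by diet was 5. It was 3 with tissue lists as covariates, where 18466 of 38827 genes were called. It was 4 without the strain block, 6 without the unmatched strains and 7 by robust regression. Of 38827 genes, 22536 were called by diet without the strain block and 21225 without the unmatched strains. Without the strain block that fixes the pairing, Cd34 lost its call (adjusted p = 0.0737) and no other diet call changed. The count called by strain was 1. It was 3 after quantile normalization, where 3985 of 38827 genes were called, and 3 without the lowest 40% of genes (3702 of 23297). With tissue lists it was 2 (2635 of 38827 genes), and without the unmatched strains 6 (6859 genes). With BXD strains alone it was 0, where 1949 of 38827 genes were called, and by robust regression it was 8. When each strain was left out in turn, 0 to 3 members were called. The 0 counts arose without BXD65 or C57BL/6J, and the counts of 3 without BXD55, BXD75, BXD79 or BXD84. The parental count was 0, against 1 without the unmatched strains (5817 of 38827 genes) and 3 by robust regression. Among all 38827 genes, robust regression called the strain term for 29803, against 4035 in the main fit. It called the parental term for 12600 genes, against 4539, so its counts of members are no result particular to them. The count of members whose level on high fat followed that on chow was 0, against 3 after quantile normalization and 6 without the unmatched strains. For that test the share of all genes was not measured. Robust regression also called Pdgfra (0.096 units, adjusted p = 0.00737) and Ly6a (0.134 units, 0.00469) by diet. In that setting 28982 of 38827 genes were called by diet, against 23752 in the main fit. After removal of the tissue lists, r turned from negative to positive for Cd34 with Thy1 on high fat (0.529), for Pi16 with Thy1 on chow (0.401) and for Thy1 with Cd248 on chow (0.525); the cause was not tested. No second feature existed for any member. With 1 pool per strain and diet, the spread between animals is not known, and array precision rests on the number of strains alone.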
